A study of Camelus dromedarius with 30 samples.

Results

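Protein quality control in the kidney was examined through 88 of the 22444 genes of the count table. These are the genes that the study's lists of transcripts and proteins changed by water deprivation or rehydration name with a symbol starting with HSP, DNAJ, CCT, BAG, PSM, UBE, UBA, USP or CUL. They fall into 34 chaperone genes, 22 proteasome genes and 32 ubiquitin genes, and all 88 held enough counts to be tested, among 15376 tested genes. For 11 of them (BAG1, CUL1, DNAJB13, HSPA1L, HSPA9, PSMD11, PSMD14, UBE2G2, UBE2L3, USP2 and USP21) the study had called the transcript changed on these same counts, so their comparisons between conditions are not independent evidence. The other 77 entered through the list of changed proteins of the same camels. The copies of these lists used here were shortened, and the changed transcripts of the medulla between rehydrated and dehydrated camels were missing from them. Further genes of these families were not analysed here, and the difference between tissues played no part in the choice.

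The animals were adult male dromedary camels (Camelus dromedarius) of 4 to 5 years, fed alfalfa hay and housed on a ranch. Control camels drank freely, dehydrated camels went without water for 20 days with free access to food, and rehydrated camels went through the same deprivation and then drank freely for 3 days. Poly(A)-selected RNA of the kidney cortex and of the kidney medulla was sequenced from 5 camels per condition, 15 in all, which gave 30 libraries in 6 groups. No genetic modification or further agent was used, and the kidneys came from camels killed at an abattoir, some staying longer at room temperature before freezing.

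Chaperones bind unfolded or newly made proteins and help them to fold. HSP70 proteins do so in cycles driven by ATP, J proteins deliver the clients, BAG proteins release nucleotide from HSP70, and the CCT ring encloses actin and tubulin while they fold. Proteins that are to be destroyed are tagged with ubiquitin by an E1, an E2 and an E3 enzyme in turn, among them the cullin ligases, and deubiquitinases of the USP family take the tag off. The proteasome then degrades the tagged protein: the 19S cap recognises and unfolds it with a ring of ATPases, and the 20S core cuts it with catalytic beta subunits. The kidney medulla is known for high and changing concentrations of salt and urea, and heat shock proteins are known to be induced there under osmotic stress.

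Each library held 12634346 to 20005136 read pairs counted on genes. Levels are CPM, the read pairs of a gene scaled to the same library size, and levels of different genes are compared only as CPM per kilobase of exonic length. A gene is said to be called when its p-value from edgeR's quasi-likelihood test, adjusted by the Benjamini-Hochberg method over the 15376 genes, was under 0.05. Of the 10 cortex markers and 10 medulla markers looked for, 2 and 5 carried a symbol. A symbol was available only for genes named in the study's lists of changed transcripts and proteins. The markers left were therefore not chosen independently of the conditions. Summed CPM of SLC22A8 and SLC17A3, transporters of the proximal tubule, ran from 1172 to 2098 in control cortex and from 7.20 to 157 in control medulla. Of the medulla markers, AQP2, AQP3, UMOD and CLDN8 were higher in the medulla in all 3 conditions. CALB1, also put on that list, was higher in the cortex and so did not mark the medulla here. A pair of libraries stood apart from the others of their groups: cortex control replicate 3 (mean absolute log2 difference over all genes 0.853, where the least distant library of its group had 0.362) and medulla rehydration replicate 3 (0.717 against 0.354). Results are therefore also given without both where this changes them.

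Most calls among these genes were between the tissues, and the proteasome genes went 1 way. In control camels, 21 of 22 proteasome genes were lower in the medulla than in the cortex and none was higher, with a median log2 fold change of -1.0, while the median over all tested genes was 0.10. Of all tested genes, 60.9% were called in this comparison, and 28.6% of all tested genes were called lower and 32.2% higher in the medulla. Groups without overlap were found in 46 of the 88 members, against 42.9% of all tested genes. Of the 34 chaperone genes, 8 were higher and 15 lower in the medulla (median -0.22). Of the 32 ubiquitin genes, 7 were higher and 12 lower (median 0.04). In bulk tissue, fewer cells of a type and less RNA per cell cannot be told apart, and cortex and medulla are made of different tubule segments.

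**Figure D1:**
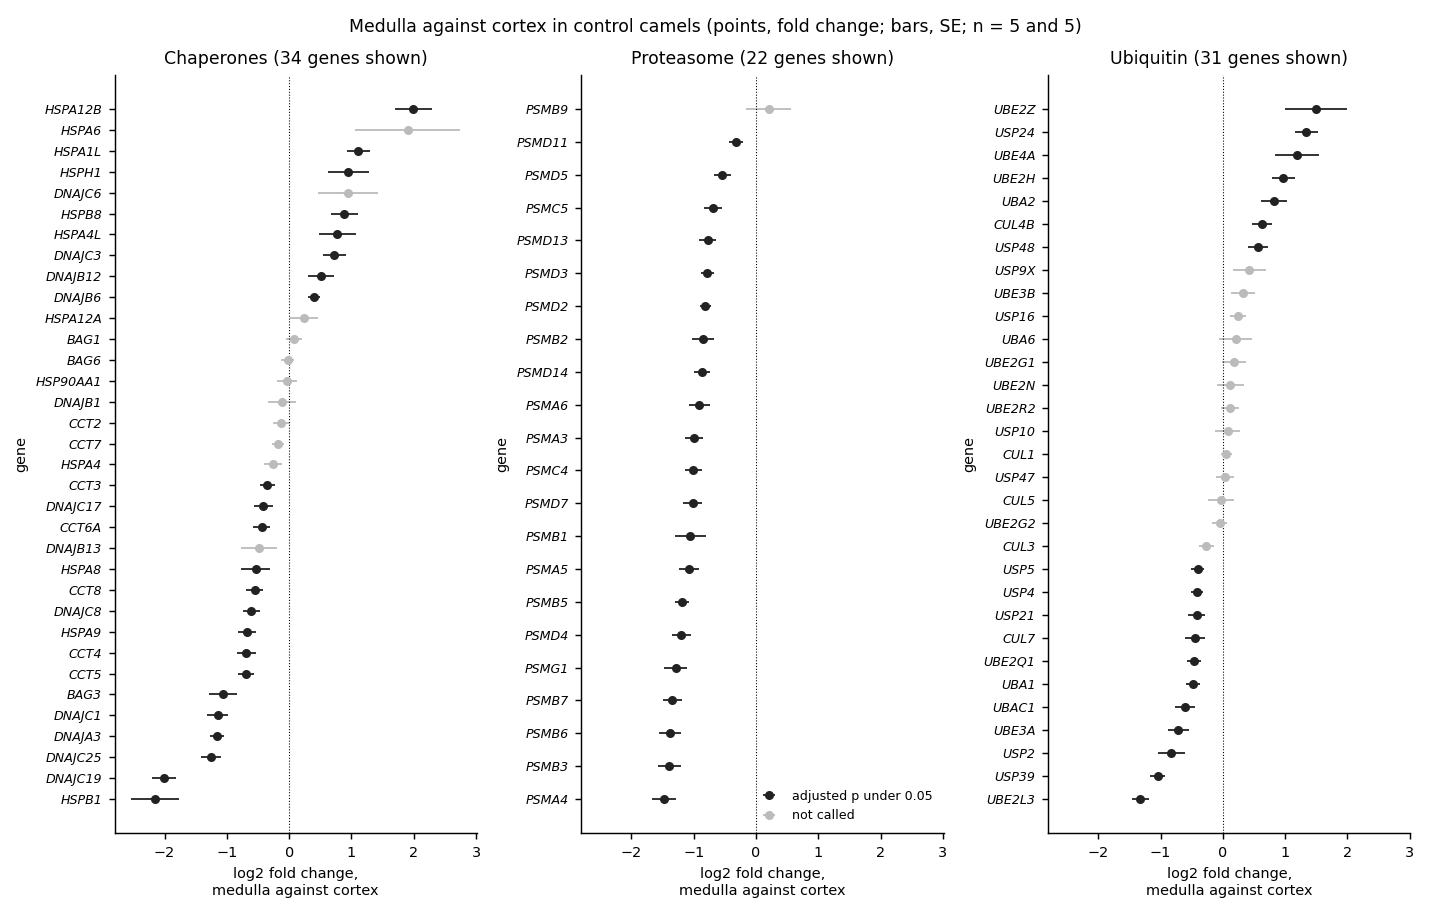
Log2 fold change of the chaperone, proteasome and ubiquitin genes, 1 ubiquitin gene left out, in the medulla against the cortex of control camels (x axis, points) with its standard error (bars), 5 libraries per tissue, 1 panel per class and the genes on the y axis. All proteasome genes other than PSMB9 lie left of 0, while chaperone and ubiquitin genes lie on both sides.

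The sum of the 22 proteasome genes separated the tissues in every condition. In control camels it was 4100, 4524, 5175, 5378 and 6021 CPM in the 5 cortex libraries and 2790, 2145, 2899, 2384 and 2104 CPM in the 5 medulla libraries. The lowest cortex library thus stood above the highest medulla library, and the same held in dehydrated camels (3981 to 5548 CPM against 1772 to 2590 CPM) and in rehydrated camels (4065 to 5153 CPM against 1913 to 2728 CPM). The 34 chaperones summed to 8408 to 9820 CPM in control cortex and to 5823 to 7219 CPM in control medulla, without overlap on this scale. In dehydrated and rehydrated camels the chaperone sums of the tissues overlapped, with medulla libraries of up to 8068 and 8311 CPM against lowest cortex libraries of 7783 and 8095 CPM. The ubiquitin genes summed to 2240 to 2472 CPM in control cortex and 2007 to 2203 CPM in control medulla, and in dehydrated and rehydrated camels their ranges overlapped. Library totals behind these CPM were multiplied by factors of 0.740 to 0.895 in control cortex and 1.07 to 1.26 in control medulla. The chaperone and ubiquitin gaps between control tissues were no larger than this scaling, so they depend on it, while the proteasome gap was larger. Of the unscaled counts, the 88 members made up 1.30% to 1.46% in control cortex and 1.21% to 1.37% in control medulla.

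**Figure D2:**
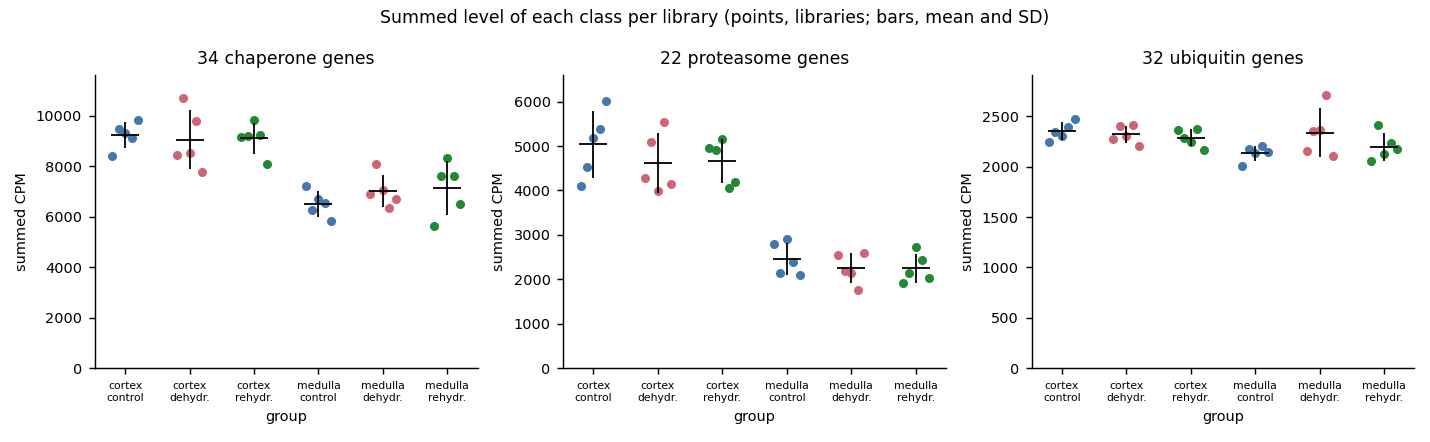
Summed CPM (y axis) of the chaperone, proteasome and ubiquitin genes in each library (points) of the 6 groups of tissue and condition (x axis), with the mean and SD of 5 libraries. The proteasome sums of the cortex, 3981 to 6021 CPM, all lie above those of the medulla, 1772 to 2899 CPM.

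Within the 20S core, all 4 alpha subunits were lower in the medulla of control camels, by -0.91 to -1.48 on the log2 scale. PSMA4, a subunit of the alpha ring that gates entry into the core (chromosome 27, 22001287 to 22008155, plus strand, CamDro2 assembly), had 250, 311, 417, 337 and 417 CPM in the control cortex and 147, 100.2, 158, 118 and 98.1 CPM in the control medulla. Every cortex library exceeded every medulla library, and the log2 fold change was -1.48 ± 0.19 (SE; adjusted p = 4.35e-07, edgeR, 5 camels). It was -1.32 in dehydrated and -1.44 in rehydrated camels.

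Of the 7 beta subunits, 6 were lower in the medulla. These included the 3 that carry the active sites of the standard core: PSMB5, which cuts after hydrophobic residues, PSMB6, which cuts after acidic ones, and PSMB7, which cuts after basic ones. PSMB5 had 281, 305, 292, 345 and 362 CPM in the control cortex and 158, 121, 151, 141 and 124 CPM in the control medulla. The ranges were far apart and the log2 fold change was -1.19 ± 0.12 (SE; adjusted p = 6.51e-09, edgeR). PSMB6 and PSMB7 differed by -1.38 ± 0.18 and -1.34 ± 0.16, and PSMB3, a structural beta subunit, by -1.39 ± 0.18. In each of these 4 genes the groups did not overlap in any of the 3 conditions.

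PSMB9 was the exception in the core. It encodes the interferon-inducible subunit that replaces PSMB6 in the immunoproteasome, and lies on chromosome 20 at 22264583 to 22269348 (plus strand). In control camels it had 42.9, 20.7, 36.1, 31.5 and 37.2 CPM in cortex libraries, where medulla libraries had 71.0, 30.8, 45.8, 23.1 and 23.2 CPM, so the groups overlapped widely. Its log2 fold change between the tissues was 0.21 ± 0.36 in control (adjusted p = 0.632), -0.32 ± 0.36 in dehydrated (0.447) and -0.12 ± 0.36 in rehydrated camels (0.780), all by edgeR. Its standard error was larger than that of the standard catalytic subunits, and whether its tissue difference departs from theirs was not tested. Of the 18 other immunoproteasome and interferon genes looked for, only IFIT1, an interferon-induced gene, carried a symbol. It was higher in the medulla in control (1.61, adjusted p = 0.0307, edgeR) and dehydrated camels (1.96, 0.00770) and not called in rehydrated camels (1.07, 0.139). After dehydration it gave 1.61 in the cortex (0.207) and 1.96 in the medulla (0.121).

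In the 19S cap, both ATPases and all 7 non-ATPase subunits were lower in the medulla of control camels, with medians of -0.85 and -0.81. PSMD14, the deubiquitinase of the cap that strips ubiquitin chains from substrates, differed by -0.86 ± 0.13 and PSMD11, a scaffold subunit of the lid, by -0.32 ± 0.11 (adjusted p = 0.0153, edgeR). The 2 assembly chaperones were lower too. PSMD5, which binds an ATPase during assembly of the cap, differed by -0.54 ± 0.14 (adjusted p = 0.00142).

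The 3 comparisons of the tissues share no library, so they can be counted together. Lower in the medulla in all 3 were 19 of 22 proteasome genes (86.4%), 10 of 34 chaperones (29.4%) and 7 of 32 ubiquitin genes (21.9%). Over all tested genes this share was 21.9%. Higher in all 3 were 0 proteasome genes, 5 chaperones (14.7%) and 7 ubiquitin genes (21.9%), against 24.6% of all tested genes. No member was called in opposite directions. The background was 65.4% called in dehydrated camels (31% lower and 34.4% higher in the medulla) and 61.1% in rehydrated camels (28.1% lower and 33% higher), and the members called came to 66 and 56 of 88, 46 and 40 of them lower. The 3 proteasome genes outside the 19 were PSMB9, PSMD11 (-0.03 in dehydrated and -0.13 in rehydrated camels, neither called) and PSMD5 (-0.19 in dehydrated camels, not called, and -0.52 in rehydrated camels, called).

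Camel by camel, with the tissues of a camel matched by the number in the sample titles, the 19 genes were lower in the medulla in 15 of 15 camels. PSMD5 was lower in 14, PSMD11 in 11 and PSMB9 in 8 of 15. The numbering of the rehydrated camels is in doubt, because the short codes given for their cortex libraries are not those of their medulla libraries. The 21, 19 and 20 proteasome genes called lower in the 3 conditions were the same numbers without both libraries that stood apart, with the animal as a block and with the RNA integrity number of each library as a covariate. Medulla libraries had the higher median of that number in each condition, in dehydrated camels without overlap with the cortex. With DESeq2's size factors in edgeR, PSMD11 lost its call in control camels (-0.26, adjusted p = 0.0513), which left 20.

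**Figure D3:**
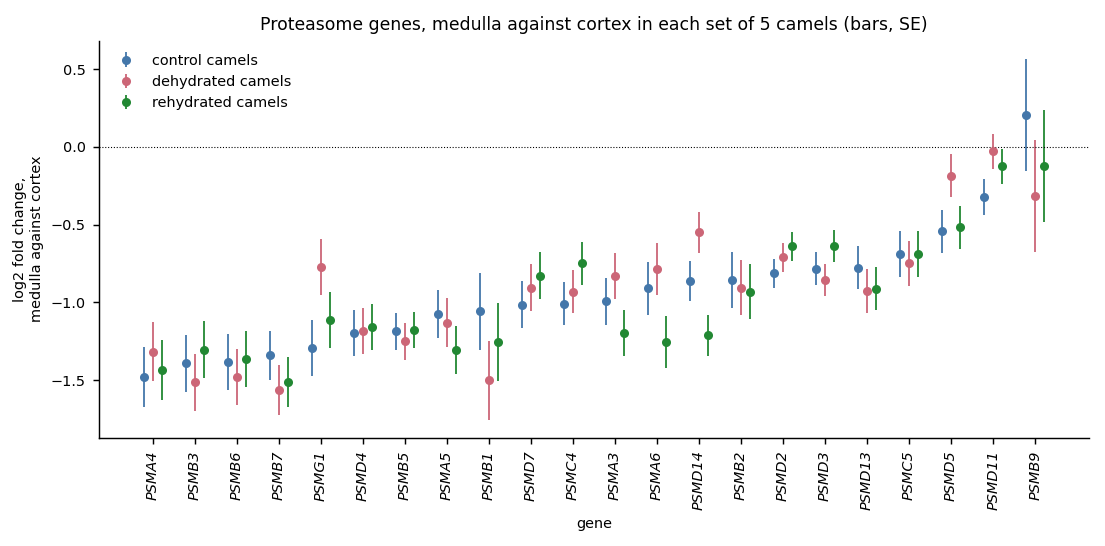
Log2 fold change in the medulla against the cortex (y axis) of the 22 proteasome genes (x axis) in control, dehydrated and rehydrated camels, 5 per condition, with standard errors as bars. The 3 sets of points run together below 0 for 19 genes, and PSMB9 lies near 0 with the widest bars.

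Chaperones went both ways between the tissues. In the CCT chaperonin, 5 of 7 subunits were lower in the medulla of control camels (median -0.44) and none was higher. Of the 12 J proteins, 3 were higher and 6 lower, and of the 9 genes of the HSP70 and HSP110 family, 4 were higher and 2 lower. One of the chaperones of that family, HSPA12A, is counted by its symbol alone, since the study's list describes it as another gene, shootin 1. The 3 BAG co-chaperones included BAG3, which couples HSP70 to selective autophagy and was lower by -1.07 ± 0.23 (adjusted p = 0.000273, edgeR), and BAG1, which was not called (0.08, adjusted p = 0.618).

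Some of the chaperones lower in the medulla are mitochondrial proteins. DNAJC19, a J protein of the inner mitochondrial membrane, had 302, 351, 442, 421 and 452 CPM in the control cortex and 112, 57.6, 114, 93.7 and 109 CPM in the control medulla. All cortex libraries were above all medulla libraries, and the log2 fold change of -2.02 ± 0.19 (adjusted p = 3.09e-09, edgeR) was -2.25 in dehydrated and -2.21 in rehydrated camels. DNAJA3, the J protein partner of mitochondrial HSP70, differed by -1.16 ± 0.11 and HSPA9, that HSP70 itself, by -0.68 ± 0.14. DNAJC25, a membrane-bound J protein, differed by -1.25 ± 0.16. Each of the 4 was called in all 3 conditions without overlap of the groups.

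HSPB1, the small heat shock protein also known as HSP27, was the most abundant chaperone per length, with a mean of 833 CPM per kilobase over the 30 libraries. It lies on chromosome 18 at 24152438 to 24153956 (plus strand) and shares its place with a gene model on the other strand, which the strand-specific counting keeps apart. Its level in the control cortex was 563, 522, 1964, 769 and 1269 CPM, the highest in the library that stood apart. In the control medulla it was 304, 189, 249, 191 and 208 CPM. The cortex values spread widely but did not reach down to the medulla, and the log2 fold change was -2.16 ± 0.38 (adjusted p = 2.92e-05, edgeR). It was -2.07 in dehydrated camels and -1.44 in rehydrated camels, whose groups overlapped.

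Higher in the medulla was HSPA12B, a distant member of the HSP70 family known from endothelial cells. It had 4.42, 4.22, 9.66, 3.57 and 2.50 CPM in the control cortex and 18.8, 21.6, 19.8, 16.5 and 19.3 CPM in the control medulla. The groups lay apart, with a log2 fold change of 1.99 ± 0.30 (adjusted p = 2.98e-06, edgeR), and it was higher in the medulla in 15 of 15 camels. HSPH1, an HSP110 protein that exchanges nucleotide on HSP70, was higher by 0.95 ± 0.32 (adjusted p = 0.0134), 1.57 and 1.34 in the 3 conditions, although without medulla control replicate 1 the first of these was not called (adjusted p = 0.0599). HSPA4L, an HSP110 protein also called osmotic stress protein, was higher by 0.77 ± 0.30 (adjusted p = 0.0272) in control camels, 1.14 in dehydrated and 0.97 in rehydrated camels. HSPB8, a small heat shock protein that works with BAG3, was higher by 0.89 ± 0.22 in control camels (adjusted p = 0.00104), by 0.52 ± 0.22 in rehydrated camels (0.0394), and not called in dehydrated camels (0.43 ± 0.22, 0.0838).

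A list of 10 chaperones of the heat shock response was taken by itself (HSPA1L, HSPA6, HSPA8, HSPH1, HSP90AA1, HSPB1, HSPB8, DNAJB1, BAG3 and HSPA4L). Not all of them are classic heat-induced genes, since HSPA8 is the constitutive HSP70 and HSPA1L is known mainly from the testis. Between the tissues of control camels, HSPA1L, HSPH1, HSPB8 and HSPA4L were higher and HSPA8, HSPB1 and BAG3 lower in the medulla. In dehydrated camels 2 were higher (HSPH1 and HSPA4L) and 3 lower (HSPB1, BAG3 and DNAJB1), where HSPA1L (0.32, adjusted p = 0.108) and HSPB8 were not called. DNAJB1 was not called in control camels (-0.11, adjusted p = 0.669). In rehydrated camels 4 were higher and 1 lower, where BAG3 was not called (-0.39, adjusted p = 0.137), all by edgeR. Of all tested genes, 60.9% were called between the tissues in control, 65.4% in dehydrated and 61.1% in rehydrated camels. HSPA8 was close to the threshold (-0.54 ± 0.23, adjusted p = 0.0485) and differed by 0.03 and -0.01 in the other conditions. HSP90AA1, the inducible cytosolic HSP90, differed by -0.04 ± 0.16 (adjusted p = 0.844). HSPA6, a strictly stress-induced HSP70, had at most 9.80 CPM in any library and none in cortex control replicate 3.

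After 20 days without water, 1 of these 10 genes was called in the cortex (HSPA1L) and none in the medulla. Of all tested genes, 2.45% were called in the cortex and 1.68% in the medulla. HSPA1L is also among the genes that the study had called changed on these same counts. The median log2 fold change of the list was 0.15 in the cortex and 0.22 in the medulla. HSPB1 differed by 0.11 ± 0.37 and 0.19 ± 0.37, HSP90AA1 by 0.19 ± 0.16 and 0.38 ± 0.16, and HSPH1 by 0.00 ± 0.33 and 0.62 ± 0.32 (cortex and medulla, log2). DNAJB1 gave 0.44 ± 0.22 in the cortex (adjusted p = 0.354, edgeR). Its response in the medulla differed from that in the cortex by -0.62 ± 0.31 (adjusted p = 0.682, edgeR). Single libraries carried high values: HSPA8 was 1530 CPM in cortex dehydration replicate 2 and 652 to 905 CPM in the other 4, and HSPA6 was 9.80 CPM in medulla control replicate 1 and 0.54 to 1.39 CPM in the other 4. After 3 days of water, none of the 10 was called in either tissue against control or against dehydration. Of all tested genes, 0.0845% (cortex) and 0.813% (medulla) were called against control, and 2.32% and 3.67% against dehydration. Reads of HSPA1L, HSPA6 and HSPA8 may be shared between near-identical copies of HSP70 genes, and HSPA8 also overlaps 2 gene models on its own strand.

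**Figure D4:**
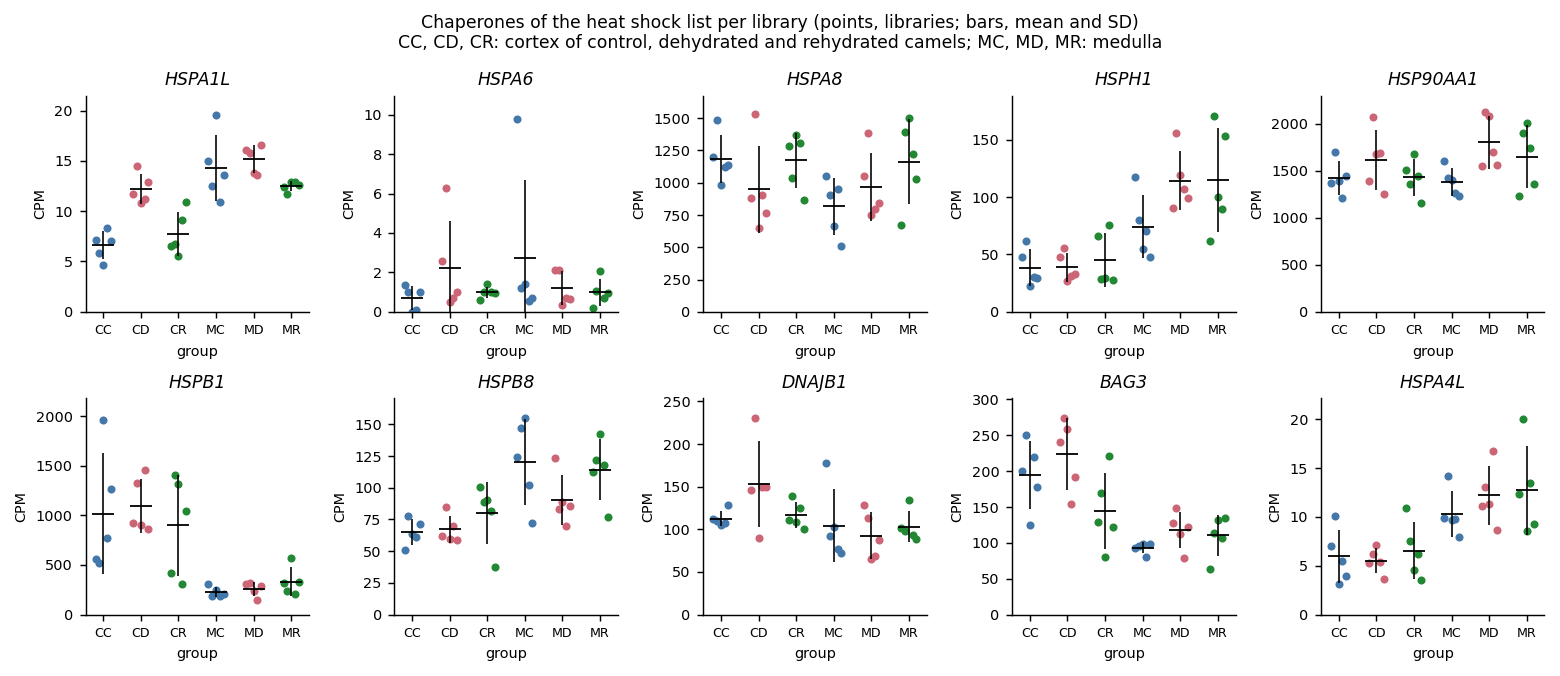
CPM (y axis, from 0) of the 10 chaperones of the heat shock list in each library (points) of the 6 groups (x axis; CC, CD and CR, cortex of control, dehydrated and rehydrated camels; MC, MD and MR, medulla), with the mean and SD of 5 libraries. HSPA1L is higher in dehydrated than in control cortex without overlap, and the bars of the other 9 genes overlap between these groups.

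Ubiquitin genes went both ways too. The furthest below 0 was UBE2L3, an E2 that serves HECT and parkin-type ligases, with 92.6, 104, 133, 123 and 150 CPM in the control cortex and 54.0, 44.9, 51.0, 46.5 and 44.5 CPM in the control medulla. The groups did not overlap, and the log2 fold change was -1.32 ± 0.14 (adjusted p = 1.96e-08, edgeR). USP39, a splicing factor of the USP family, differed by -1.04 ± 0.12, and USP2, a deubiquitinase that stabilises membrane channels and cell cycle proteins, by -0.83 ± 0.22. UBA1, the main E1 of ubiquitin, was lower in control and dehydrated camels (-0.48 and -0.60) and not called in rehydrated camels (-0.21).

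On the other side was USP24, a large deubiquitinase, with 65.2, 67.9, 63.4, 63.2 and 64.7 CPM in the control cortex and 127, 209, 137, 173 and 175 CPM in the control medulla. The groups lay apart (log2 fold change 1.34 ± 0.19, adjusted p = 1.30e-06, edgeR), and USP24 was higher in the medulla in 15 of 15 camels. UBE2Z, an E2 charged by UBA6, differed by 1.5 ± 0.50, UBE4A, an E4 ligase that extends chains, by 1.19 ± 0.35, and UBE2H, an E2 of the CTLH ligase, by 0.97 ± 0.19. UBE2Z had no counts in cortex control replicate 3 and up to 13.9 CPM in the other control cortex libraries, so its groups overlapped. CUL5, the scaffold of SOCS-box ligases, was called in dehydrated camels (0.99 ± 0.21, adjusted p = 0.000219) and not in control camels (-0.03 ± 0.21). The difference between its tissue responses to dehydration was 1.02 ± 0.30 and did not pass the test (adjusted p = 0.286). CUL3, the scaffold that pairs with KLHL3 to degrade WNK kinases, was called in rehydrated camels (-0.32 ± 0.12, adjusted p = 0.0218) and not in control camels (-0.26 ± 0.12, 0.0595), and the tissue responses to rehydration differed by -0.06 ± 0.17.

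Between conditions few members were called, and by edgeR their share was near or below the background in each comparison. In the cortex, dehydration against control called 1 of 88 members, where 2.45% of all tested genes were called. Rehydration against control called 0 of 88 (0.0845% of all genes), with 6 members at an unadjusted p under 0.05 and 1 called by DESeq2. Rehydration against dehydration called 1 (2.32%). In the medulla the same comparisons called 1 (1.68%), 1 (0.813%) and 2 (3.67%). Members with an unadjusted p under 0.05 numbered 10, 6 and 14 for the cortex (background 14.7%, 8.28% and 15.1%), with 16, 14 and 17 for the medulla (13.4%, 14.7% and 20%). DESeq2 called more members and more genes, namely 4, 1 and 6 members in the cortex comparisons, where it called 4.35%, 0.748% and 4.52% of all genes it tested. In the medulla it called 4, 2 and 4 members, against 2.37%, 2.22% and 5.39%. By DESeq2 the share of members thus lay above that of all genes, narrowly in some cases, except for rehydration against dehydration in the medulla. For 11 members, however, the study had itself called the transcript changed by DESeq2 on these same counts. A higher share by DESeq2 is therefore partly fixed by the choice of members and is not independent evidence.

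HSPA1L, an HSP70 gene next to the inducible pair in the major histocompatibility region of other mammals, was the chaperone called in the dehydrated cortex (ENSCDRG00005009726, chromosome 20, 20808938 to 20810863, minus strand). It had 7.14, 5.89, 4.63, 8.28 and 7.05 CPM in control cortex and 11.7, 14.5, 10.8, 11.2 and 12.9 CPM in dehydrated cortex. Every dehydrated library exceeded every control library, and the mean rose from 6.60 ± 1.39 to 12.2 ± 1.47 CPM (SD, n = 5), a log2 fold change of 0.88 ± 0.19 (SE; adjusted p = 0.00834, edgeR). Groups without overlap were found in 4 of the 88 members in this comparison, against 5.53% of all tested genes. In rehydrated cortex it was 6.50, 6.71, 5.52, 9.14 and 10.9 CPM, of which the highest reached the dehydrated range, with -0.65 ± 0.18 against dehydration (adjusted p = 0.0558). In the medulla it stood at 10.9 to 19.5 CPM in control and 13.6 to 16.6 CPM in dehydrated camels, a difference of 0.09 ± 0.17, and the test of the difference between the tissues' responses gave -0.79 ± 0.25 (adjusted p = 0.339). Summed cortex markers were also lower in the dehydrated cortex, at 233 to 611 CPM against 1172 to 2098 CPM in control cortex, and their part in the result was not tested. These markers are themselves in the study's lists of changed genes, so their fall is not an independent measure of tissue make-up.

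USP2 fell in the medulla. The gene (ENSCDRG00005021255) lies on chromosome 33 at 11129942 to 11166296 (minus strand). The control medulla had 45.8, 56.0, 53.1, 36.6 and 61.3 CPM, the dehydrated medulla 27.1, 25.4, 25.2, 18.1 and 20.3 CPM and the rehydrated medulla 22.8, 22.0, 25.8, 39.9 and 23.7 CPM. All dehydrated libraries were below all control libraries, and of the rehydrated libraries only replicate 4 reached the control range. The mean was 50.6 ± 9.57 CPM in control, 23.2 ± 3.81 CPM in dehydrated and 26.8 ± 7.44 CPM in rehydrated medulla (SD, n = 5). The log2 fold change was -1.12 ± 0.22 after dehydration (adjusted p = 0.00597) and -0.92 ± 0.22 after rehydration (adjusted p = 0.0447), both by edgeR. The second call lay at the threshold. It was lost in 16 of the 30 fits that leave out a library (adjusted p up to 0.133, without medulla rehydration replicate 1), without both libraries that stood apart (0.0647), without a filter (0.0509), with the medulla alone (0.0528), with the replicate number as a block (0.0522) and with edgeR's older deviance (0.0795). The log2 fold change was -0.84 to -1.1 in the fits that leave out a library and -0.90 to -0.95 in the other alternatives. Summed cortex markers, themselves from the study's lists of changed genes, also moved in the medulla. They went from 7.20 to 157 CPM in control to 1.92 to 47.5 CPM in dehydrated and 23.9 to 71.9 CPM in rehydrated camels. Their part in the result was not tested. In the cortex USP2 had 77.1 to 102 CPM in control, 42.6 to 77.1 CPM in dehydrated and 54.2 to 171 CPM in rehydrated camels, with -0.66 ± 0.22 for dehydration against control (adjusted p = 0.120) and 0.75 ± 0.22 for rehydration against dehydration (adjusted p = 0.0651).

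USP21, a deubiquitinase that acts on histone H2A among other targets (ENSCDRG00005016613, chromosome 21, 12333459 to 12338282, plus strand), was the member called in the cortex between rehydration and dehydration. It had 37.5, 35.6, 36.6, 32.4 and 38.6 CPM in dehydrated and 29.3, 25.0, 18.4, 26.7 and 29.5 CPM in rehydrated cortex. The groups did not overlap, and USP21 was lower after rehydration by -0.49 ± 0.13 (adjusted p = 0.0492, edgeR). The call lay at the threshold and was lost in 23 of the 30 fits that leave out a library, with adjusted p up to 0.137. Summed cortex markers, themselves from the study's lists of changed genes, also differed between these groups. They stood at 1005 to 1481 CPM after rehydration against 233 to 611 CPM after dehydration, and their part in the result was not tested.

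In the medulla, PSMD5 and USP16 were lower in rehydrated than in dehydrated camels. PSMD5 (ENSCDRG00005012041, chromosome 4, 13521408 to 13578376, plus strand) had 78.0, 86.8, 81.5, 79.7 and 71.4 CPM in dehydrated and 43.1, 65.6, 57.3, 52.8 and 54.4 CPM in rehydrated medulla. USP16, which removes ubiquitin from histone H2A (ENSCDRG00005000998, chromosome 1, 110473060 to 110498021, plus strand), had 68.0, 70.2, 83.0, 91.1 and 79.0 CPM in dehydrated and 50.6, 59.9, 58.0, 58.5 and 53.6 CPM in rehydrated medulla. In both genes all rehydrated libraries lay below all dehydrated ones. The log2 fold changes were -0.54 ± 0.14 (adjusted p = 0.0259) and -0.48 ± 0.13 (adjusted p = 0.0308), by edgeR. Leaving out a library ended the PSMD5 call in 4 of 30 fits (adjusted p up to 0.103) and the USP16 call in 5 (up to 0.102), both highest without medulla rehydration replicate 1. Control medulla lay at 55.2 to 66.8 CPM for PSMD5 and 63.1 to 73.2 CPM for USP16, between or beside these groups, and against control neither was called after dehydration (0.41 ± 0.14 and 0.26 ± 0.13) or rehydration (-0.13 ± 0.14 and -0.22 ± 0.13).

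**Figure D5:**
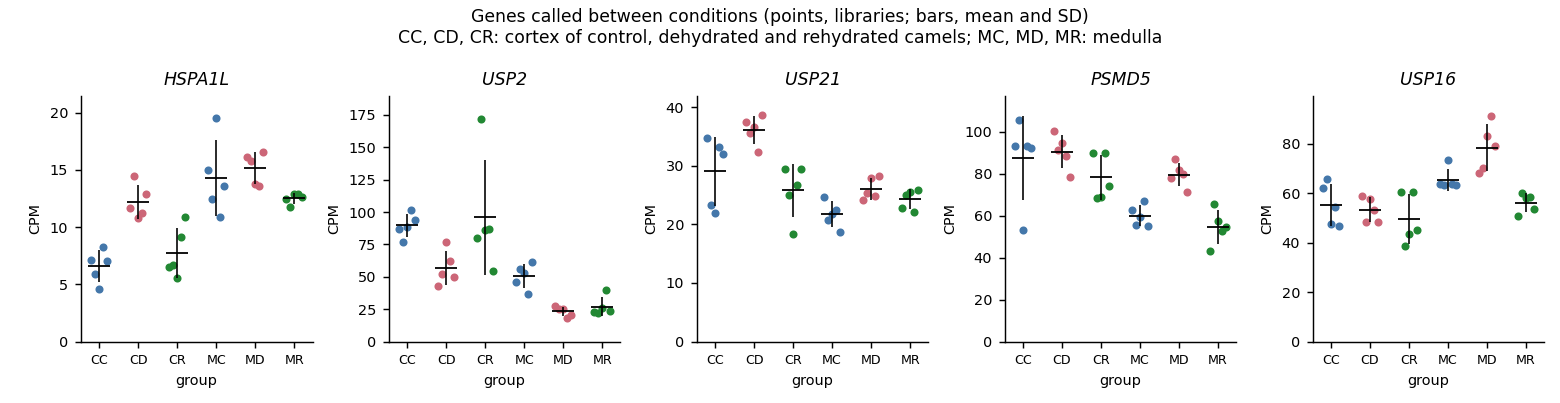
CPM (y axis, from 0) of the 5 genes called between conditions in each library (points) of the 6 groups (x axis; CC, CD and CR, cortex of control, dehydrated and rehydrated camels; MC, MD and MR, medulla), with the mean and SD of 5 libraries. HSPA1L differs in CD, USP2 in MD and MR, USP21 between CD and CR, and PSMD5 and USP16 between MD and MR.

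The other 8 members of the study's list of changed transcripts were not called between conditions. Nearest to the threshold in the cortex after rehydration against dehydration were PSMD14 (0.46 ± 0.13, adjusted p = 0.0564), UBE2G2, an E2 of the degradation pathway of the endoplasmic reticulum (0.42 ± 0.12, 0.0680), and HSPA9 (0.45 ± 0.14, 0.0839). PSMD11 gave -0.38 ± 0.11 in the cortex after dehydration (0.0679). In the medulla BAG1, which links HSP70 to the proteasome, gave -0.45 ± 0.13 after dehydration (0.0749) and -0.50 ± 0.13 after rehydration (0.0540), and DNAJB13, a J protein of cilia and sperm tails, gave 0.88 ± 0.26 after dehydration (0.0849). CUL1, the scaffold of SCF ligases, gave 0.24 ± 0.09 there (0.175), and UBE2L3 gave -0.41 ± 0.14 in the dehydrated cortex (0.120). All these adjusted p-values are from edgeR. Without both libraries that stood apart, PSMD11 was called in the dehydrated cortex, HSPA1L, HSPA9 and PSMD14 were called beside USP21 in the cortex after rehydration against dehydration, and BAG1 and PSMD5 were called beside USP2 in the dehydrated medulla. Neither library belongs to the rehydrated or dehydrated cortex or to the dehydrated or control medulla. The calls in those comparisons changed only through the spread, filter and scaling that all groups share.

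The classes were also described by their medians. In the cortex the proteasome genes had medians of -0.11 after dehydration, -0.12 after rehydration against control and -0.01 for rehydration against dehydration, and in the medulla -0.08, -0.15 and -0.01, where the medians over all tested genes lay from 0.00 to 0.03. In the dehydrated medulla 27 of 32 ubiquitin genes had a positive log2 fold change (84.4%, against 51.4% of all tested genes; median 0.17), 7 had an unadjusted p under 0.05 (21.9% against 13.4%), 6 of them higher, and 1 was called, USP2, which was lower. For rehydration against dehydration there, 23 of 32 were negative (median -0.12), so 28.1% were positive, against 50.5% of all tested genes. Of the 32, 13 had an unadjusted p under 0.05 (40.6%, against 20% of all tested genes), 9 of them lower. These comparisons share the dehydrated libraries. How the tissues responded to dehydration and to rehydration differed in 0 of 88 members by edgeR (background 0.0455% and 0%) and in 0 by DESeq2 (background 0.346% and 0.0102%), with 7 and 5 members at an unadjusted p under 0.05 (background 7.56% and 5.07%).

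The members varied less between camels of a group than other genes did. Their median coefficient of variation within a group was 16.3% for chaperones, 15.4% for proteasome and 15.7% for ubiquitin genes, where it was 28.2% over all tested genes. The mean level of these genes was not matched in this description. HSPA6 varied most (85.6%) and CUL1 least (6.07%). Per kilobase, the most abundant chaperones after HSPB1 were HSPA8 (472 CPM per kilobase) and HSP90AA1 (419), and the least abundant were DNAJB13 (2.43), HSPA4L (2.20) and HSPA6 (0.614). In the proteasome, PSMB1 (335), PSMB6 (269) and PSMB7 (239) stood highest and PSMD5 (31.6), PSMD11 (28.1) and PSMD14 (26.5) lowest. The ubiquitin genes ran from UBE2L3 (63.5), UBE2R2 (59.8) and UBA1 (58.7) down to USP9X (6.74), UBE4A (5.54) and CUL5 (5.47).

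Other genes of these pathways carried a symbol in few cases, since only genes in the study's lists of changed transcripts and proteins have one. The counts below cover that selected part and do not stand for the pathways. Of 74 further chaperone genes looked for, 18 were tested, and between the tissues of control camels 11 were lower in the medulla and 0 higher. Of all tested genes, 28.6% were called lower and 32.2% higher in this comparison. Of 33 further proteasome genes, only ADRM1, a ubiquitin receptor of the cap (-0.75, adjusted p = 0.00441), and VCP, the segregase that feeds it (-0.45, adjusted p = 0.00422), were tested, and both were lower in the medulla by edgeR. Both were lower in rehydrated camels too (-0.53 and -0.38), and neither was called in dehydrated camels (-0.34 and -0.20). All 5 tested of 66 further ubiquitin genes were lower too, among them KLHL3, the adaptor of CUL3 (-2.01, adjusted p = 1.35e-09). Between conditions, where 0.0845% to 3.67% of all tested genes were called, none of the 18 chaperones and neither proteasome gene was called. KLHL3 was lower in the dehydrated cortex (-0.86, adjusted p = 0.00572), and STUB1, a ligase that works with HSP70, was lower in the cortex after rehydration against dehydration (-0.47, adjusted p = 0.0264). Of 8 tested genes of the endoplasmic reticulum stress list, which counts the member DNAJC3, 1 was higher and 2 lower in the control medulla, and 0 were called between conditions, with 0 to 3 at an unadjusted p under 0.05 in each comparison. No immune cell marker carried a symbol. HBB, the only blood marker, stood at 0 to 25.2 CPM and was called in no comparison. Against control it gave -2.03 (cortex) and -2.48 (medulla) after dehydration and -2.93 (cortex) and -1.90 (medulla) after rehydration, each at an unadjusted p under 0.05 (adjusted p = 0.0555 to 0.194, edgeR), and the part of blood in the results was not tested. FOSB, the only immediate early gene with a symbol, was higher in the control medulla (1.5) and not called between conditions.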

How the data were processed

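Per the labels and the study's methods, reads were trimmed (BBDuk) and mapped to CamDro2, and the authors obtained the number of read pairs per gene from featureCounts 1.6.2 with reverse strand and Ensembl genes. The methods name STAR and the table's headers name Rsubread, so the aligner is not settled. The deposited values are raw counts, 1 column for each of 30 libraries. The processing notes also name DESeq2 1.31.18, whose output was not used here.

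From these, edgeR 4.0.16 (R 4.3.3) kept genes that passed filterByExpr at a minimum count of 10 and a minimum total of 15, scaled libraries by TMM and fitted all 30 libraries at once, a mean for each of the 6 groups. Genes were tested by quasi-likelihood and their p-values adjusted by Benjamini-Hochberg over 15376 genes in each of 11 comparisons (conditions in pairs within a tissue, tissues within a condition, and the tissues' responses to dehydration and rehydration). CPM use TMM-scaled totals. Replicates are separate camels, and no pair of libraries held identical counts. The biological coefficient of variation between camels was 34.0% over all tested genes. How much depth limits the precision for genes of few counts was not tested.

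Symbols come from the study's lists (4197 genes), and 1 ubiquitin gene that enters the counts is not reported here by itself. The members and gene lists were chosen with earlier results of these data known. Genes are named when called between conditions, when among the 4 highest or 4 lowest called of a class between control tissues, when among the 3 highest or lowest of a class per length, or when fixed beforehand by role or by the study's transcript list. The fit was first run with edgeR's older deviance; after the members' results had been seen it was changed to the newer one, which the earlier processing of these data used, and the older one is given as an alternative. On counts simulated for cortex dehydration against control, with 15244 genes tested, 10.6%, 30.8% and 78.8% of genes changed 1.5-fold, 2-fold and 4-fold were recovered, and 4 of 83 calls were wrong.

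Alternatives were DESeq2 1.42.0, its size factors, other filters, RNA integrity as a covariate, fits of a single tissue, a block for the replicate number or the animal, and 30 fits that each lack a library. A fit lacking a library outside the compared groups changes a result only through the spread, filter and scaling that all groups share. In the labels, the number of a camel is shared by its cortex and medulla, so the animal pairs the tissues. Cortex and medulla libraries of the same number deviated from their groups alike only weakly (mean correlation across genes 0.139, 0.0934 and 0.0487 in control, dehydrated and rehydrated camels). Between conditions, camels share only a number. A planned description of promoters was not made, and no sequence was used here.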

Additional observations from a re-analysis of the deposited data

Results flagged for a closer look

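In 11 of 294 groups of 5 libraries tested over the named members and the sums of the 3 classes, the highest or lowest library lay further from its neighbours than Dixon's criterion allows, where chance alone gives about 1 in 20 (14.7). Of the chaperones, HSPA6 was 9.80 CPM in medulla control replicate 1 against 0.543 to 1.39 CPM in the other 4, HSPA8 was 1530 CPM in cortex dehydration replicate 2 against 652 to 905, and HSPA12B was 9.66 CPM in cortex control replicate 3 against 2.50 to 4.42. DNAJA3 was 219 CPM in cortex dehydration replicate 4 against 168 to 182, and DNAJB1 was 134 CPM in medulla rehydration replicate 3 against 88.5 to 101. HSPA9 was low in medulla control replicate 2, at 721 CPM against 874 to 907. Of the proteasome genes, PSMD5 was low in cortex control replicate 3, at 53.0 CPM against 92.1 to 105. Of the ubiquitin genes, USP2 was 171 CPM in cortex rehydration replicate 2 against 54.2 to 86.9 and 39.9 CPM in medulla rehydration replicate 4 against 22.0 to 25.8. USP16 was 73.2 CPM in medulla control replicate 3 against 63.1 to 63.7, and CUL1 was low in cortex rehydration replicate 2, at 74.8 CPM against 82.1 to 84.7. Of these, 3 lie in the libraries that stood apart over all genes. What sets these libraries apart was not tested.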

How the results depend on the processing

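The counts of members called between the tissues stayed within 1.5 times their values (63, 66 and 56) under every alternative run, with 58 to 64, 64 to 68 and 54 to 58 when a library was left out. With RNA integrity as a covariate they were 61, 57 and 46. The counts of 0 for the tissues' responses stayed at 0. Between conditions, where counts are 0 to 2, small changes crossed that limit. DESeq2 called 4, 1 and 6 cortex members (dehydration against control, rehydration against control, rehydration against dehydration) and 4, 2 and 4 medulla members, in the same order (4.35%, 0.748%, 4.52%, 2.37%, 2.22% and 5.39% of all genes it tested). For rehydration against dehydration in the cortex, where USP21 was called, 2 were called with DESeq2's size factors in edgeR and 2 after a filter on a mean level of 1 CPM, but 0 without a filter, with RNA integrity, with the libraries of the tissue alone and with the older deviance. For rehydration against control in the medulla, where USP2 was called, 0 were called without a filter, with the tissue alone and with the older deviance. With the replicate number as a block these counts were 2 and 0, the latter because USP2 lost its call (adjusted p = 0.0522). With the animal as a block 63, 67 and 55 members were called between the tissues, within 1.5 times of the counts above. Without both libraries that stood apart, an alternative chosen after seeing the data as was the older deviance, the cortex comparisons called 2, 0 and 4 members and the medulla comparisons 3, 0 and 2. Leaving out a library gave 1 to 2, 0 to 0 and 0 to 4 (cortex) or 1 to 2, 0 to 2 and 0 to 2 (medulla). Apart from DESeq2, the shares of all genes called under these alternatives are not given here. Their counts of members are therefore not compared with a background.

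No direction was reversed. HSPA1L in the dehydrated cortex and USP2 in the dehydrated medulla were called in all 30 fits without a library (adjusted p up to 0.0295 and 0.0282, edgeR). Most of the 30 fits left both compared groups whole, so they did not vary the libraries compared. USP2 after rehydration was lost in 16 (up to 0.133), PSMD5 in 4 (up to 0.103) and USP16 in 5 (up to 0.102), the last 2 with their highest adjusted p without medulla rehydration replicate 1. PSMD11 between the control tissues was lost with DESeq2's size factors (-0.26, adjusted p = 0.0513), under which the median of all genes moved from 0.10 to 0.16. The cause of these changes was not tested. In data simulated for cortex dehydration against control, 30.8% of 2-fold changes were recovered over all genes, a share not computed for the members, which varied less between camels.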
